A study of Danio rerio with 7 samples.

Results

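Beta crystallins are the subject here, described through 14 probes for 6 zebrafish genes, out of 43663 probes in the value table and 3794 genes that the deposited lists name. Embryos injected with tbx5-MO, an antisense morpholino oligonucleotide directed against the translational start of tbx5, were compared with wild-type (WT) embryos, and both groups were whole embryos of the AB strain. The 7 arrays each carried RNA of MO embryos labelled with Cy5 and of WT embryos labelled with Cy3, with 2 arrays at 24 hours post-fertilization (hpf), 2 at 30 hpf and 3 at 48 hpf. Every value below is a log2 ratio of MO over WT on 1 array, so a value above 0 is higher in MO embryos and a value of 1 is a 2-fold difference. No array had the dyes swapped, so an effect of the dye and an effect of the morpholino cannot be told apart, and no array carried RNA of embryos injected with another morpholino.

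The members were chosen by the measured values. The deposited lists name the probes at or below a log2 ratio of -0.584, about 1.5-fold lower, on every array of a stage, and the probes taken were those whose symbol, as listed or as updated by Entrez number, began with cryba or crybb. Their values at the stage of a list are therefore a description without a test. Each of the 14 probes matched 1 row of the value table alone by its values on the arrays of its list. The 24 hpf list held 6 of them, the 30 hpf list 13 and the 48 hpf list 0, with 5 on both earlier lists. The share of all probes low enough for a list was 7.72% at 24 hpf and 6.76% at 30 hpf. The 48 hpf list held only 916 of the 43663 probes, so nothing is read from the 0 members on it. By gene there were 4 probes for crybb1, 5 for cryba2a, 2 for cryba4 and 1 each for crybb1l2, cryba1b and cryba1l2, where crybb1l2 was listed as zgc:171773 and cryba1l2 as zgc:101859. The reference gene table holds 13 cryba and crybb genes, and the other 7, cryba1a, cryba1l1, cryba2b, crybb1l1, crybb1l3, crybb2 and crybb3, were not named by the lists and were not analysed here.

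Beta crystallins are structural proteins of the vertebrate lens. They belong with the gamma crystallins to a superfamily built of Greek key folds, and acidic (A) and basic (B) chains associate into oligomers that fill the cytoplasm of lens fibre cells and give the lens its refractive power. In zebrafish the lens forms from surface ectoderm during the first day of development, and its fibre cells elongate and fill with crystallins as the eye matures. In RNA of whole embryos, fewer lens fibre cells and less crystallin RNA per cell cannot be told apart, and the files hold ratios and no levels, so the amount of lens RNA in either group cannot be read from them.

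A further feature of the values bears on every stage. Many values were repeated exactly on an array, which is read here as a sign of spots near the background, since brightness itself was not in the files. Of the 14 beta crystallin values on each array, 3 and 1 were found once on the 24 hpf arrays, 8 and 10 on the 30 hpf arrays, and 14, 14 and 13 on the 48 hpf arrays. Over all probes, 12.5% and 10.2% of values were found once on the 24 hpf arrays. The share was 18.3% and 12.8% at 30 hpf, and 18.6%, 27.0% and 18.4% at 48 hpf. At 24 hpf the members thus repeated about as often as probes in general. On the second 24 hpf array 1 cryba2a value was shared by 97 probes, and on the first 1 crybb1l2 value was shared by 60. The plot of how often each value occurs shows this order, with the 24 hpf values repeated most and the 48 hpf values hardly at all.

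**Figure D1:**
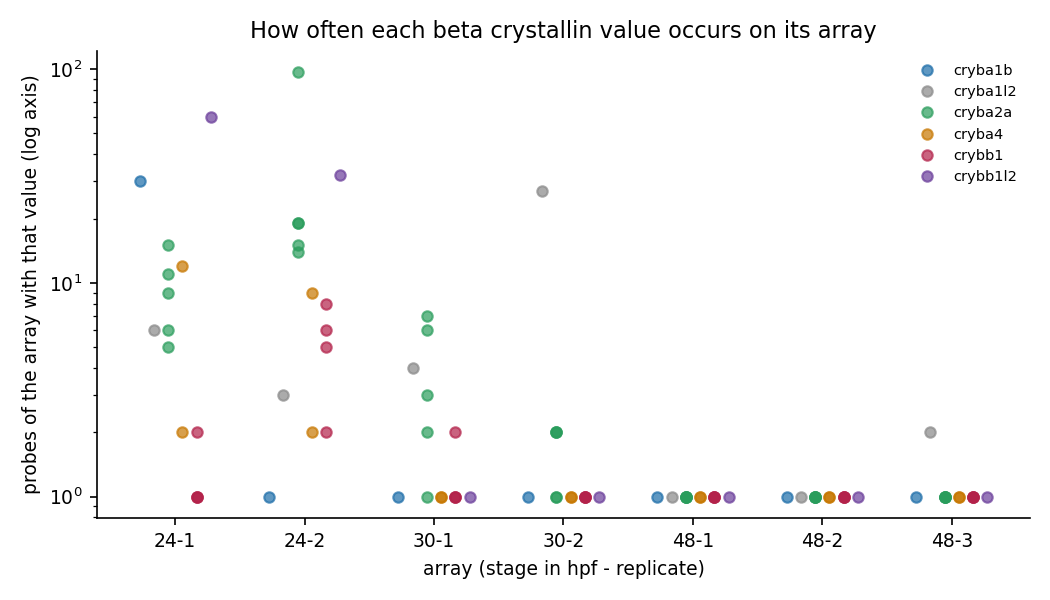
For each beta crystallin probe (points, coloured by gene) the number of probes on the same array with exactly the same value, on a log axis, by array. Values were shared by up to 97 probes at 24 hpf and by up to 27 at 30 hpf, and at 48 hpf by no more than 2.

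The 48 hpf list held none of the members, but the family was taken up with earlier results of these data known. The counts at this stage are therefore a description. At 48 hpf, 13 of the 14 probes were at least 1.5-fold higher in MO than in WT embryos on all 3 arrays. This compares with 1.97% of all probes and 5.39% of the 2913 placed probes of the 30 hpf list. The 13 were all members of that list and covered crybb1, crybb1l2, cryba1b, cryba2a and cryba4, while cryba1l2 lay near 0. Their means at 48 hpf were between 1.21 and 2.60, and the median of all 14 was 1.87, against 0.00 over all probes and 0.03 over the 30 hpf list. In the limma fit of all 7 arrays, with Benjamini-Hochberg adjustment over 43663 probes, 0 members passed 0.05 in the direction of higher values, as did 0% of all probes. An unadjusted p under 0.05 with a higher value was found for 11 of 14 members, against 2.65% of all probes. When limma was instead fitted to the 3 arrays at 48 hpf over the 4646 probes with values found once on each of them, a choice made with the data known, 13 of the 13 members among them passed, against 12.8% of those probes. That background was the higher direction alone, with 597 probes higher and 731 lower. The restriction favoured probes that were higher, since 7.25% of the probes it kept were at least 1.5-fold higher on every 48 hpf array, against 1.34% of the others, so the count is given as a description only.

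The basic chain crybb1 had the highest gene mean at 48 hpf, 2.36 ± 0.72 (SD, n = 3). Probe A_15_P331789 read 2.23, 2.05 and 3.52 on the 3 arrays, a mean of 2.60 ± 0.80 (SD, n = 3), or 6.05-fold higher in MO embryos. Its adjusted p was 0.53 in the limma fit of all 7 arrays. All 3 arrays were well above 0, and the third was the highest.

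The other 3 probes of crybb1 lay close to it. Probe A_15_P470795 read 2.40, 2.02 and 3.13 (limma adjusted p = 0.64 over 7 arrays). Probe A_15_P114366 read 2.54, 1.54 and 2.97, and A_15_P162326 read 2.02, 1.10 and 2.87, with limma adjusted p of 0.53 and 0.74 over 7 arrays. The array names begin with a number that was read as a day, though they do not say what it stands for. With this number as a block in the fit, A_15_P470795 averaged 1.41 in place of 2.52. The 4 probes are not 4 measurements of independent sequence. Each is 60 bases long, and by the coordinates in the lists on chromosome 10, of a build not given in the sources used here, A_15_P331789, A_15_P470795 and A_15_P114366 overlap by 33 to 53 bases, whereas A_15_P162326 starts 228 to 255 bases from them. The spread of the 4 probes on 1 array was 0.52, 0.95 and 0.65 from lowest to highest at 48 hpf, less than the 1.44 between the lowest and highest array of their mean.

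Of the other basic chain, crybb1l2, the 1 probe read 1.37, 1.45 and 2.65 at 48 hpf, a mean of 1.82 ± 0.72 (SD, n = 3). Its limma adjusted p was 0.83 over 7 arrays. The gene lies next to cryba1l2 in the reference gene order, and its probe read higher than that of cryba1l2 on each of the 3 arrays.

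Among the acidic chains, cryba1b read 1.99, 1.78 and 2.83 at 48 hpf, 4.59-fold higher on average with an SD of 0.55 on the log2 scale (n = 3), and a limma adjusted p of 0.53 over 7 arrays. The 2 probes of cryba4 do not overlap, with 610 bases between their starts. A_15_P105627 read 2.13, 1.97 and 2.53 and A_15_P175256 read 1.31, 1.38 and 2.16, with limma adjusted p of 0.83 and 0.77 over 7 arrays. Every array was above 0 for these 3 probes, and A_15_P105627 was above the other cryba4 probe on all 3. With the number of the array names as a block, however, the 48 hpf mean of A_15_P105627 was -0.0073 in place of 2.21. Its 24 hpf arrays, 1 with each number, read far apart.

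The 5 probes of cryba2a had lower means, 1.21 to 1.92, than the 4 of crybb1, 2.00 to 2.60, a difference that was not tested. A_15_P566037 read 1.44, 1.27 and 3.04, A_15_P273166 read 1.80, 1.31 and 2.17, and A_15_P335079 read 1.48, 1.35 and 2.25. A_15_P581942 read 1.30, 1.20 and 1.78 and A_15_P117004 read 0.92, 1.08 and 1.65. All 15 of these values were above 0, the 0.92 of A_15_P117004 being the lowest of the 13 beta crystallin probes of the 30 hpf list. Their limma adjusted p was 0.63 to 0.83 over 7 arrays. With the number of the array names as a block, A_15_P117004 averaged 0.30 in place of 1.21. Of the 5, A_15_P566037, A_15_P335079 and A_15_P581942 overlap by 23 to 46 bases, A_15_P581942 and A_15_P117004 share 2 bases, and the rest share none.

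The acidic chain cryba1l2 was the exception. It read -0.05, 0.28 and -0.34 at 48 hpf, a mean of -0.03 ± 0.31 (SD, n = 3), on both sides of 0, with an adjusted p of 1.00 in limma over 7 arrays. It was also the member that the 30 hpf list did not hold.

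The arrays at 48 hpf differed in the size of the ratios. The third array was the highest of the stage for 13 of the 14 probes, cryba1l2 being the other, and the second was the lowest for 10. The median over the 14 probes was 1.64, 1.36 and 2.59 on the 3 arrays. Without the third array the median of the stage means was 1.49, and the same 13 probes were at least 1.5-fold higher.

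**Figure D2:**
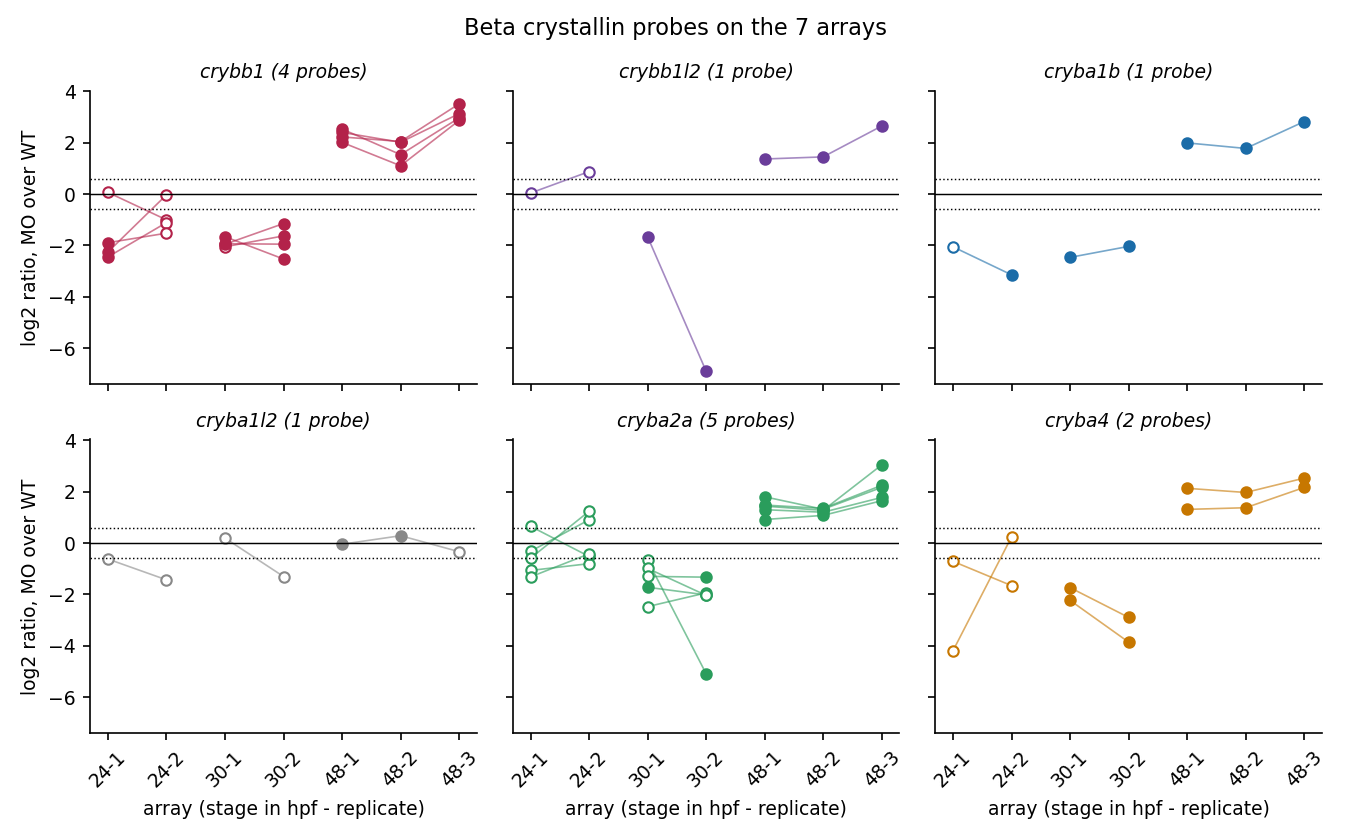
Log2 ratio of MO over WT (y axis) of every beta crystallin probe on the 7 arrays (x axis), in 1 panel per gene, with thin lines joining the arrays of a stage for each probe, dotted lines at 1.5-fold lower and higher, filled points for values found once on the array and open points for values shared with other probes. All probes of crybb1, crybb1l2, cryba1b, cryba2a and cryba4 lay below 0 at 30 hpf and above 0 at 48 hpf, whereas cryba1l2 lay near 0 at 48 hpf.

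At 30 hpf, where 13 probes were chosen for low ratios, the values run as follows, without a test. The 4 probes of crybb1 lay between -2.05 and -1.66 on the first array and between -2.53 and -1.15 on the second, a spread of 0.39 and 1.38. The probe of crybb1l2 read -1.66 and -6.89, and the second value was the lowest of any member on any array. The 2 arrays thus gave this gene 5.24 log2 units apart, and its mean of -4.28 carries an SD of 3.70.

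Of the acidic chains at 30 hpf, cryba1b read -2.47 and -2.04, and the 2 cryba4 probes read -1.74 and -2.90 (A_15_P105627) and -2.23 and -3.86 (A_15_P175256). For cryba2a the 5 probes lay between -2.48 and -0.67 on the first array and between -5.09 and -1.33 on the second. The lowest of these, -5.09, belonged to A_15_P273166, the probe that was also nearest to the limit of the list on the first array with -0.67. The 1 member outside the list was cryba1l2, above the limit on the first array with 0.19 and below it on the second with -1.30, a value shared by 27 probes (limma adjusted p = 0.82 over 7 arrays).

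The members thus stood on opposite sides of 0 at the later and the earlier stage. For all 13 probes of the 30 hpf list the lowest 48 hpf value, 0.92 or higher, was above the highest 30 hpf value, -0.67 or lower. The low side was fixed by the list. The high side was fixed by no list, but the family was taken up with earlier results of these data known. The difference of 48 minus 30 hpf was 2.53 to 6.10 over the 13 probes with a median of 4.29, against a median of 1.28 over all probes of the 30 hpf list, whose difference the choice at 30 hpf also pushes above 0. Of the 13 probes, 11 were among the 100 largest differences of the 2913 probes on the list. The rank was 1 for crybb1l2, with 6.10, and 284 for A_15_P117004 of cryba2a, with 2.53.

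By gene, the mean 48 minus 30 hpf difference was 6.10 for crybb1l2, 4.60 for cryba4, 4.45 for cryba1b, 4.22 for crybb1 and 3.56 for cryba2a, against 0.52 for cryba1l2. The first place of crybb1l2 rests on the -6.89 of the second 30 hpf array. The order of the others lies within the spread between arrays, since the SD of their gene means was 0.06 to 0.98 at 30 hpf and 0.38 to 0.72 at 48 hpf.

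**Figure D3:**
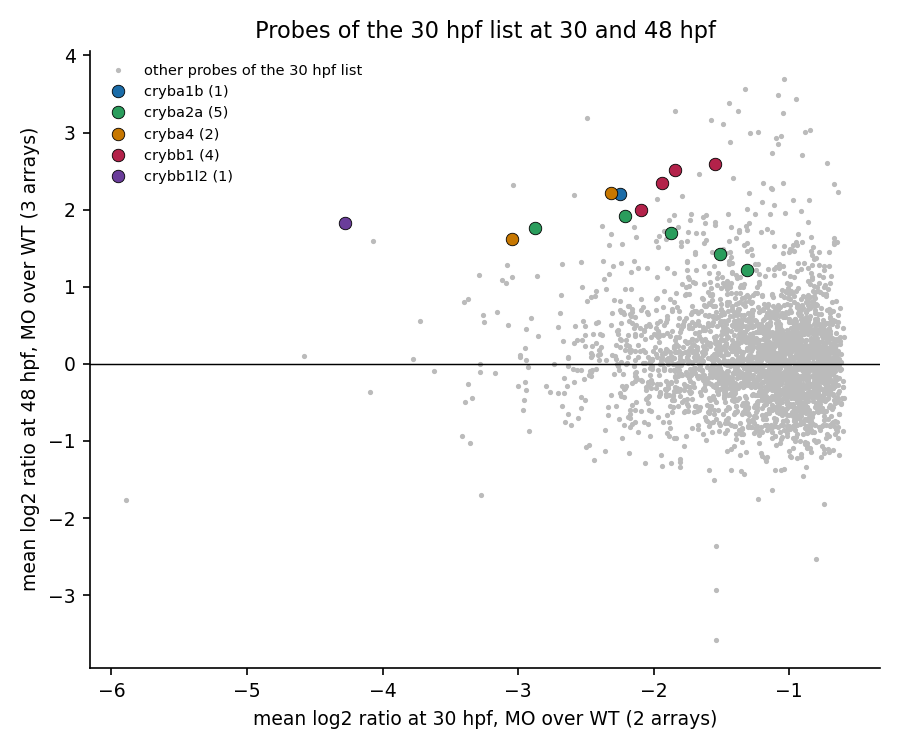
Mean log2 ratio of MO over WT at 30 hpf (x axis, 2 arrays) against the mean at 48 hpf (y axis, 3 arrays) for the placed probes of the 30 hpf list, which were chosen for low values on the x axis. The 13 beta crystallin probes (coloured by gene) lay between 1.21 and 2.60 at 48 hpf, where the list as a whole had a median of 0.03.

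At 24 hpf the beta crystallins varied between arrays and between probes of 1 gene. The 6 probes chosen at this stage (description only) included cryba1b with -2.06 and -3.15, A_15_P162326 of crybb1 with -1.89 and -1.52 and cryba1l2 with -0.62 and -1.43, the -0.62 being the nearest to the limit. The 8 probes not chosen at this stage had means with a median of -0.20, and 5 of them lay on both sides of 0, 2 below it and 1 above it on both arrays. The 1 above was crybb1l2, with 0.04 and 0.88, values that 60 and 32 probes shared.

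None of these 8 passed limma at 24 hpf, where 0.00229% of all probes passed as lower, and 0 of 8 had an unadjusted p under 0.05 against 6.45% of all probes as lower. Their adjusted p lay between 0.44 and 0.99. The members low on both 24 hpf arrays had been taken out of the 8, while the shares cover all probes. The choice thus favoured a count of 0, and no absence of change is read from it. The A_15_P105627 probe of cryba4 shows the disagreement of the arrays, with -4.19 and 0.24. Its mean of -1.98 rested on the first array. Without the second array the stage would keep 1 array, so no call is given for that fit.

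For crybb1 the overlapping probes disagreed at 24 hpf as well. On the first array A_15_P331789 read 0.07, against -2.25 for A_15_P470795 and -2.45 for A_15_P114366, which share 40 and 33 of their 60 bases with it. The 4 crybb1 probes spread over 2.51 and 1.49 log2 units on the 24 hpf arrays. At 48 hpf the same probes differed by less than 1 unit on each array, and their values were then found once each.

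The 48 minus 24 hpf difference could be tested for the 8 probes chosen at neither stage. It was above 0 for all 8, with limma adjusted p of 0.46 to 0.78, so that 0 of 8 passed, as did 0% of all probes, and 4 of 8 had an unadjusted p under 0.05 against 4.41% of all probes as higher. The 4 were A_15_P331789 and A_15_P470795 of crybb1, A_15_P105627 of cryba4 and A_15_P581942 of cryba2a. For 2 of these the size of the difference leaned on the first 24 hpf array. On the 24 hpf arrays A_15_P105627 read -4.19 and 0.24, and A_15_P470795 read -2.25 and -0.03. Their 48 minus 24 hpf differences were 4.19 and 3.66 over both 24 hpf arrays, and 1.97 and 2.55 against the second alone. For A_15_P581942 the second 24 hpf value, -0.42, was shared by 97 probes. The 2 crybb1 probes share 40 of their 60 bases, so the 4 are not independent measurements.

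The array names of the lists begin with a number that was read here as a day, though the names do not say what it stands for. The lower number was shared by both 30 hpf arrays and the first 24 hpf array. The higher number was shared by all 48 hpf arrays and the second 24 hpf array. The change of side between 30 and 48 hpf was therefore also a change of this number, called the first and second day below. Within the first day, the 30 minus 24 hpf difference had a median of -0.46 over the 14 probes and was below 0 for 10. Within the second day, the 48 minus 24 hpf difference had a median of 2.39 and was above 0 for 13, cryba2a probe A_15_P117004 giving -0.02. The same medians over all probes were 0.01 and 0.02. Both differences use values that chose members, 13 probes at 30 hpf and 6 at 24 hpf, and low values at 30 hpf lower the first while low values at 24 hpf raise both, so they are a description only.

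Other lens genes named by the lists were set beside the beta crystallins at 48 hpf. The gamma crystallins crygn2 and crygmx averaged 2.34 and 2.27 and were at least 1.5-fold higher on every array. Another probe of that list averaged 1.05 and was also higher on every array, but its gene is uncertain, since the 24 hpf list calls it prdm1b, a transcription factor, and its Entrez number gives crybg2. The alpha crystallin cryabb, a small heat shock protein found also outside the lens, read -0.11, 1.52 and 2.80.

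Among lens membrane proteins, mipb, a water channel of fibre cells, read 1.51, 1.07 and 2.91, and lim2.4, an intrinsic membrane protein of the lens fibre, read 1.29, 0.82 and 1.78. Both were above 0 on every array, while lim2.3 averaged 0.38 and lgsn, a lens protein related to glutamine synthetase, -0.12. Transcription factors of lens and eye (7 probes for mafba, pax6a, pax6b, prox1a, six6b and sox2) had a median of -0.26, with 0 of 7 at least 1.5-fold higher on every array, and the largest mean in size was that of sox2, -0.58. Of these 7, 0 had values found once on all 3 arrays.

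Over these 15 probes of other lens genes the median at 48 hpf was 0.29, with 5 at least 1.5-fold higher on every array, against 1.97% of all probes. None passed limma over 7 arrays, and 6 had an unadjusted p under 0.05 as higher, against 2.65% of all probes. The 5 with values found once passed limma over the 3 arrays, against 12.8% of such probes as higher. That restriction favoured probes that were higher, so this count is a description only. Without the probe listed as prdm1b, the median of the other 14 was 0.21, with 4 at least 1.5-fold higher on every array and 5 with an unadjusted p under 0.05 as higher. Retina genes, for other cells of the eye, gave a median of 0.12 over 9 probes with none of them 1.5-fold higher on every array. Of these 9, 0 had values found once on all 3 arrays, against 13 of the 14 beta crystallin probes. The part of weak spots in this contrast was not tested. Fast skeletal muscle genes are outside the eye. Of the 29 probes that the 48 hpf list did not hold, 14 were at least 1.5-fold higher on every array, against 1.97% of all probes. In limma over 7 arrays 12 of the 29 had an unadjusted p under 0.05 as higher, against 2.65% of all probes. Of the 25 with values found once, 21 passed limma over the 3 arrays as higher, against 12.8% of such probes. That count, too, is a description only. The median of the 29 was 0.91, with 26 means above 0 and 3 below it, from 2.31 for pvalb1 and 2.19 for pvalb2 to -0.32 for pvalb8. The muscle probe that the 48 hpf list held, tnni2b.1, averaged -2.93. The part of whole-embryo differences such as that of muscle in the crystallin values was not tested.

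**Figure D4:**
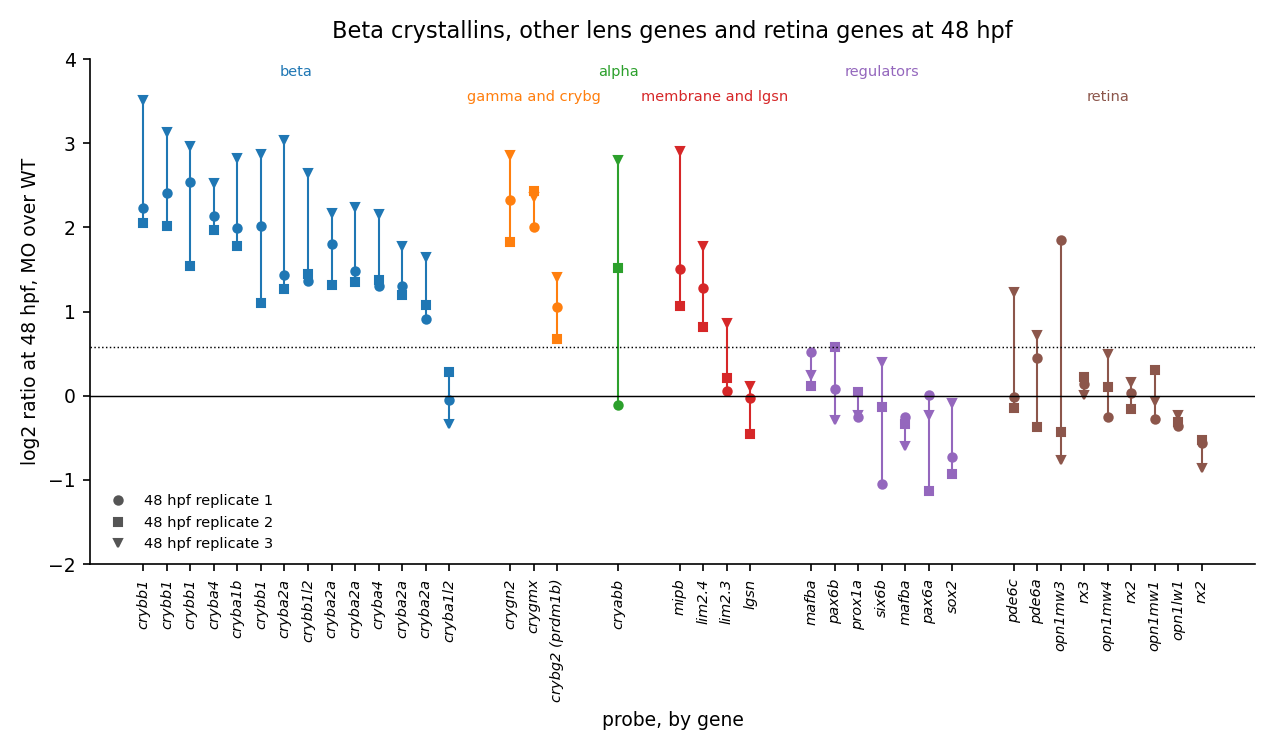
Log2 ratio of MO over WT at 48 hpf (y axis) for each probe of the beta crystallins, other lens genes and retina genes (x axis, by gene and ordered by mean), with 1 symbol per array, a line from the lowest to the highest array and a dotted line at 1.5-fold higher. Of the 14 beta crystallin probes 13 lay above the dotted line on all 3 arrays, as did crygn2, crygmx, the probe named crybg2 or prdm1b, mipb and lim2.4, and none of the 9 retina probes. Of the retina probes, 0 of 9 had values found once on all 3 arrays.

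The genes with the most similar profile were found by the root mean square difference from the mean of the 13 probes over the 7 arrays. Among named genes the nearest were pvalb2, a parvalbumin of fast muscle, with a difference of 0.34, krt1-19e, a keratin, with 0.39, nrxn1a, a neurexin of synapses, with 0.43, and hbae3, an embryonic alpha globin, with 0.45. The others of the first 10 were si:dkey-266f7.4, hbae1.1, c1qtnf9, pvalb1, tnk2b and LOC100007086, with 0.53 to 0.63, and up to 2 unnamed probes lay nearer than the last of them. The beta crystallin probes themselves differed from their own mean by 0.34 (A_15_P335079 of cryba2a) to 1.74 (crybb1l2). All 10 were named through the lists of low probes, so that genes lower at no stage had no chance to be named.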

How the data were processed

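The authors hybridised 2-colour zebrafish arrays, scanned them with a GenePix scanner, analysed them in GeneSpring GX and deposited normalized log2 ratios, taken as Cy5 (MO) over Cy3 (WT), for 43663 probes on 7 arrays. The normalization, the treatment of weak spots and the build behind the coordinates were not given in the sources used here. Array medians were -0.03 to 0.01, SDs over probes 0.77 to 1.49, and 10.2% to 27.0% of values were found once. Arrays of 1 stage correlated at r = 0.07 to 0.14 over all probes (across probes, which are not replicates), and precision is limited by how few arrays there are. Over the probes found once on every array, which held no member, r was 0.20 at 24 hpf, 0.69 at 30 hpf and 0.69 to 0.71 at 48 hpf. The labels do not say whether arrays of a stage came from separate clutches, so p-values may measure technical spread only. tbx5 itself was not analysed here.

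Of 6740 listed probes, 6662 matched 1 row alone, of which 4278 had a symbol, updated through the reference gene table (assembly GRCz12tu). limma 3.58.1 in R 4.3.3 fitted 1 mean per stage to all probes and arrays, and adjusted p under 0.05 (Benjamini-Hochberg) was called. The fits were tested on simulated data. Members and lists were chosen with earlier results of these data known. Every member was named. For each other list the plan was up to 4 probes with the largest mean at 48 hpf in size, which was not kept throughout. All regulator genes were named and no retina gene was named in the text. For fast skeletal muscle the highest means, the lowest mean and the probe on the 48 hpf list were named. Alternatives were array centring and scale, robust moderation, single stages, replicate and day blocks, gene means, limits on repeated values, another threshold and each array left out. Sequences of the members were not analysed here.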

Additional observations from a re-analysis of the deposited data

Results flagged for a closer look

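The 13 beta crystallin probes of the 30 hpf list were singled out because every 48 hpf array lay above 0 and every 30 hpf array below 0. The difference between the stages was not tested, since the 30 hpf values chose the probes. The 48 minus 30 hpf difference was 6.10 for crybb1l2 and 4.45 for cryba1b. For cryba4 it was 4.66 (A_15_P175256) and 4.53 (A_15_P105627). The crybb1 probes gave 4.36 (A_15_P470795), 4.29 (A_15_P114366), 4.15 (A_15_P331789) and 4.09 (A_15_P162326). The cryba2a probes gave 4.64 (A_15_P273166), 4.13 (A_15_P566037), 3.56 (A_15_P335079), 2.94 (A_15_P581942) and 2.53 (A_15_P117004). Over all probes of the value table, 158 were at least 1.5-fold lower on both 30 hpf arrays and 1.5-fold higher on the 3 arrays at 48 hpf.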

How the results depend on the processing

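There were few arrays, no dye swap, replicates weakly correlated over all probes, and many repeated values at 24 and 30 hpf. The tests over all 7 arrays and all 43663 probes called 0 of the members tested at any stage. The counts at 48 hpf depended on which spots and arrays were fitted. In a fit that also used all 7 arrays, but only probes with no value occurring more than 10 times on its array, 4 of 5 members passed limma at 48 hpf (99 of 6963 probes in all). These 5 were the 4 probes of crybb1, some of which overlap, and A_15_P105627 of cryba4, so they stand for few genes. At 48 minus 24 hpf 2 of 3 passed, with the share of all probes not given here. The 1972 probes found once on every array held no member, so no member was tested there, and 154 of them passed at 48 hpf. Over probes found once on the 48 hpf arrays, chosen after seeing the data, 13 of 13 members passed. So did 5 of 5 other lens probes, 21 of 25 fast skeletal muscle probes and 1328 of 4646 probes in all. Without each 48 hpf array in turn, 12 to 13 members passed. That restriction favoured probes that were higher at 48 hpf, so these counts are a description only. The count of members passing ran over these and the plain fits without 1 array between 0 and 13. With the day read from the array names as a block, which only the 24 hpf arrays tie to the stages, 560 probes passed at 48 hpf. Among them were 1 other lens probe and 0 members. In that fit 2 members turned side, cryba4 A_15_P105627 with -0.0073 and cryba1l2 with 0.37. A further 2 moved by over 1.5 times, cryba2a A_15_P117004 to 0.30 and crybb1 A_15_P470795 to 1.41. Without 1 of the 48 hpf arrays cryba1l2 was -0.19 to 0.12. Leaving out the second 24 hpf array changed calls at 24 hpf and at 48 minus 24 hpf. That fit kept 1 array at 24 hpf, so its counts are not given. Leaving out 1 array in turn, the median over members ranged from -0.98 to -0.66 at 24 hpf and from -2.03 to -1.73 at 30 hpf, and 48 hpf ran from 1.49 to 2.12. At 24 hpf it was -1.15 over gene means and -1.71 over the 5 probes found at most 10 times. The 48 minus 30 hpf median of 4.22 over the 14 probes was 3.75 to 4.57 without 1 array, and 2.85 when taken through the 24 hpf arrays within the days read from the array names. The gene means, other than that of cryba1l2, were 1.24 (cryba2a) or higher on every 48 hpf array. The 5 probes found at most 10 times were among the 13 already given as at least 1.5-fold higher. Neither adds evidence to those 13, and the share over all features of these sets was not counted. Arrays with the same number in their labels did not deviate together (r = -0.01 to 0.02 across probes), so the numbers were not taken as pairs. The second 24 hpf array has number 3 in its array name and 2 in its label, so its place in this check and in the replicate block is uncertain. With the replicate block, 0 members passed at any stage and the lowest adjusted p at 48 hpf was 0.46, and it changed no call. Centring, scaling, robust moderation, single-stage fits over all probes and an adjusted p of 0.10 changed no count of members by over 1.5 times.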

Other observations

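A probe without a symbol, A_15_P113062, was described in the 24 hpf list as similar to a beta A4 crystallin and lay outside the rule for members. By its coordinates it shares 51 of 60 bases with A_15_P175256 of cryba4. Its log2 ratios were -3.38 and -0.82 on the 24 hpf arrays, 1.01 and -2.62 on those at 30 hpf, and 1.85, 1.07 and 2.23 for 48 hpf. The 1.01 was shared by 210 probes of that array and stood against -2.23 for the overlapping cryba4 probe, while the 48 hpf values were found once. The lists place both cryba4 probes on chromosome 19 and crybb1 on chromosome 10, whereas the reference gene order has crybb1 and cryba4 as neighbours.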
